A study of Ovis aries with 32 samples.

Results

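Wnt signalling genes were followed across 4 fat depots of adult female sheep. The members were the 57 genes of 28524 in the count table whose symbol names a Wnt ligand (WNT), a receptor or co-receptor (FZD, LRP5, LRP6, ROR1, ROR2), an R-spondin or its receptor (RSPO, LGR4 to LGR6), a secreted inhibitor (SFRP, FRZB, DKK, WIF1) or an intracellular or nuclear component (AXIN, NKD, TCF7, LEF1). They comprise 18 ligands, 14 receptors, 7 R-spondin and LGR genes, 10 secreted inhibitors and 8 intracellular and nuclear genes. The sheep were 4 controls (animals 98, 131, 132 and 201) and 4 daughters of ewes given testosterone (animals 48, 185, 233 and 255), called testosterone sheep below. From day 30 to day 90 of pregnancy the treated ewes were injected 2 times a week with testosterone propionate, 100 mg or 1.2 mg/kg each time, carried in corn oil (2 ml). The regime is used to model polycystic ovary syndrome. The labels describe no injection for the control ewes.

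All 8 daughters were housed together on a maintenance diet, and the ovaries of all of them had been removed. At collection all were in an artificial follicular phase, after 2 progesterone implants for 14 days and then 4 estradiol implants of 30 mm for 18 h, so both groups carry the same steroid replacement. Each animal gave visceral fat (from around the rumen), subcutaneous fat (from over the sternum), perirenal fat and epicardial fat, 32 libraries in all. The messenger RNA was read from its 3′ end, and levels are given as CPM, counts scaled to a common library size. Levels are listed in the order of animals 98, 131, 132 and 201 for controls and 48, 185, 233 and 255 for testosterone sheep, and are not compared between genes.

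Wnt ligands are secreted proteins that bind Frizzled (FZD) receptors. With the co-receptors LRP5 and LRP6 they stabilise β-catenin, which enters the nucleus and acts with the factors TCF7, TCF7L1, TCF7L2 and LEF1, whereas ROR1 and ROR2 take part in signalling that does not use β-catenin. R-spondins bind LGR receptors and keep Frizzled receptors on the cell surface. SFRP proteins, FRZB and WIF1 bind the ligands themselves, and the Dickkopf proteins DKK1 and DKK2 block LRP5 and LRP6. In fat tissue, signalling through β-catenin is known for holding precursor cells back from becoming adipocytes, with WNT10B as the classical ligand, and SFRP5 is known as a protein secreted by fat.

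Total counts per library ran from 784135 (subcutaneous fat of testosterone sheep 48) to 8267824. The 7 adipocyte genes checked (ADIPOQ, PLIN1, LEP, LIPE, CIDEC, FABP4 and GPD1) were all detected in every group, with summed levels of 7042 to 18880 CPM in control epicardial fat against 27200 to 52550 CPM in the other control depots. Some libraries stood apart. The retained-intron gene ARGLU1 reached 19700 CPM in visceral fat of testosterone sheep 255 and 26340 CPM in subcutaneous fat of testosterone sheep 48, against at most 4990 CPM in the other libraries. HOXC6, a gene of trunk position, was at 94.6 CPM in the library labelled epicardial of testosterone sheep 255 and at no more than 2.21 CPM in the other epicardial libraries, against 74.4 to 112.6 CPM in visceral fat. Whether that library holds fat of another depot was not tested. Heart muscle genes reached 12080 and 20040 CPM in the epicardial libraries of control sheep 98 and testosterone sheep 48. Where leaving out these libraries ended a call among depots that is printed for a Wnt gene below, the value without them is given.

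Most receptors and intracellular components were measured well, and most ligands were not. No read was assigned in any library to 6 members, WNT3A, WNT7A, WNT7B, WNT8B, RSPO4 and LGR6. With a floor of 3 counts, 0 reads allow up to 0.371 to 4.04 CPM depending on the library, which covers counting error only. Another 13 members had between 1 and 114 reads over all 32 libraries and entered no test: WNT1, WNT4, WNT5B, WNT8A, WNT10A, WNT16, FZD9, FZD10, RSPO1, LGR5, DKK1, WIF1 and NKD1. The remaining 38 entered at least 1 test. Enough reads for the comparison of depots were found for 33 members in control sheep (5 ligands, 11 receptors, 3 R-spondin and LGR genes, 7 inhibitors and 7 intracellular and nuclear genes) and for 32 of these in testosterone sheep, where RSPO2 did not pass the filter on low counts.

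The first question was which Wnt genes differ among depots, and it was asked in control and testosterone sheep apart. In control sheep R-spondin 3 separated the depots into a high pair, visceral and subcutaneous, and a low pair, perirenal and epicardial. Subcutaneous fat carried less FZD1 and FZD3 and more SFRP4, WNT11 and TCF7 than the mean of the other depots, and epicardial fat carried more LGR4, SFRP1 and NKD2. By edgeR's quasi-likelihood test with the animal as a block, 14 of 33 members (42.4%) differed among the 4 depots at an adjusted p under 0.05. The same test called 39.9% of all genes, so the share of Wnt genes lies close to the background. The 14 include RSPO2 and WNT11, which entered the test through the epicardial and the subcutaneous libraries, respectively, where they are high. Their calls, also among those of single depots below, are no support. The p-values rest on 4 animals per group. In bulk tissue, fewer cells of a type and less RNA per cell cannot be told apart.

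By role, the joint test in control sheep called 2 of 5 ligands (WNT11 and WNT5A), 3 of 11 receptors (FZD1, FZD3 and FZD4) and, among R-spondin and LGR genes, RSPO3 and LGR4 beside RSPO2. It called 4 of 7 secreted inhibitors (SFRP1, SFRP4, SFRP5 and DKK2) and 2 of 7 intracellular and nuclear genes (TCF7 and NKD2). Against the mean of the other 3 depots, visceral fat had 2 members higher and 2 lower, where the background was 3.49% of all genes higher and 2.24% lower. Subcutaneous fat had 4 higher and 3 lower, against 11.4% and 11.6% of all genes. Perirenal fat had 0 higher and 3 lower, against 7.73% and 6.04%, with 5 members at an unadjusted p under 0.05 in either direction and 3 called by DESeq2, all lower. For the unadjusted and DESeq2 counts the share of all genes is not given here. Epicardial fat had 8 higher and 2 lower, against 15.3% and 12.4%. The median log2 difference of the 33 members was -0.19 for visceral fat, -0.05 for subcutaneous fat, 0.02 for perirenal fat and 0.11 for epicardial fat, and that of all genes lay between -0.01 and 0.03.

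**Figure D1:**
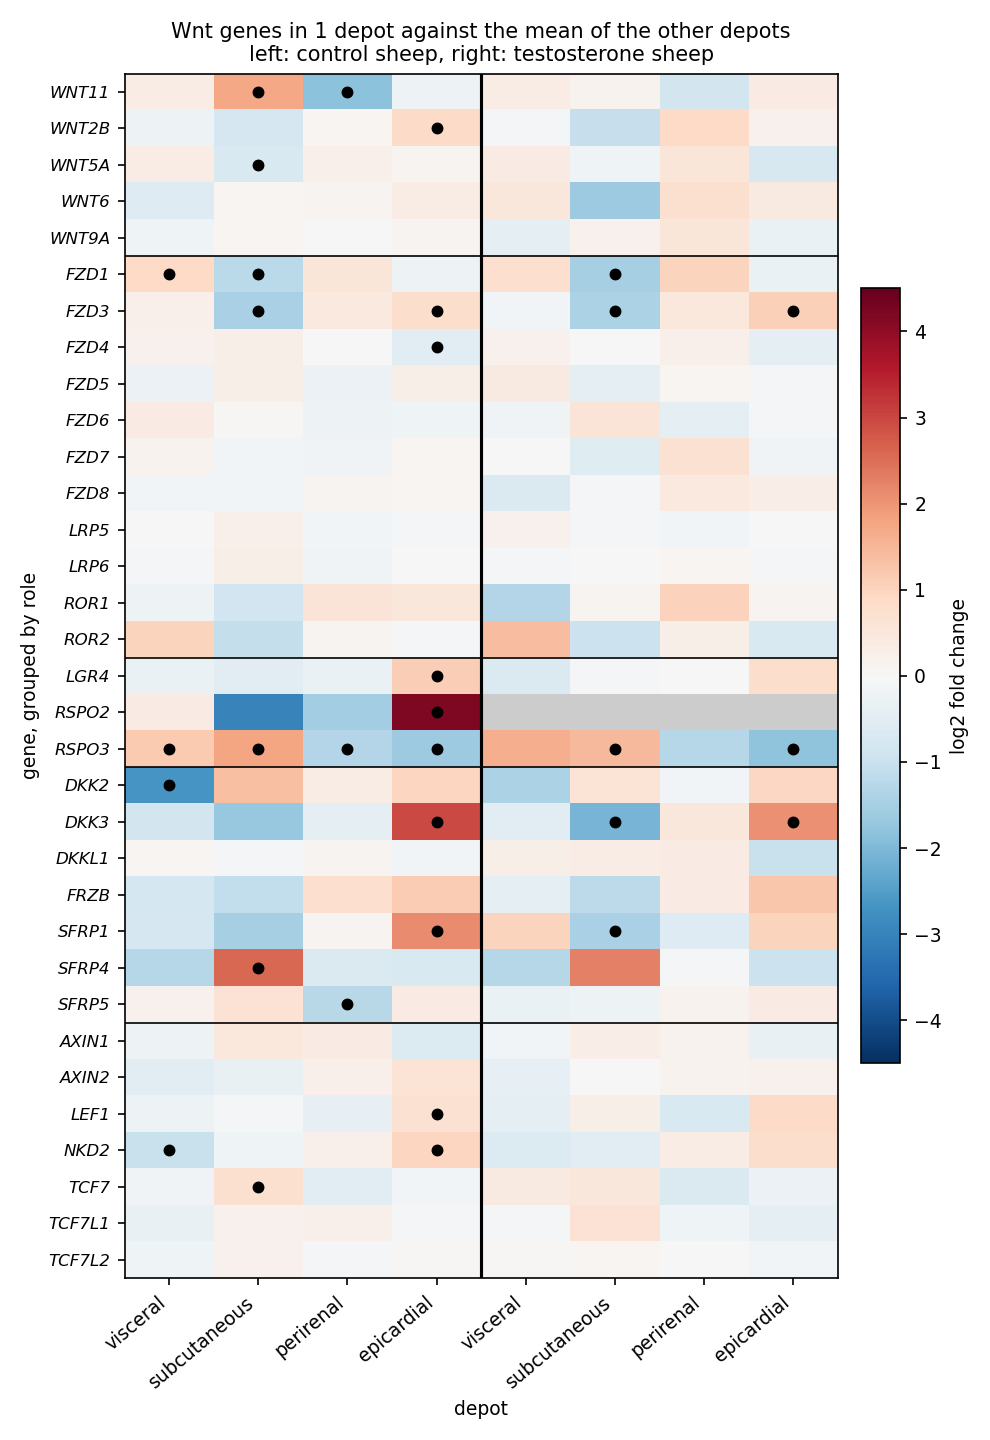
Log2 fold change of each tested Wnt gene in 1 depot against the mean of the other 3, in control sheep (4 columns on the left) and testosterone sheep (4 columns on the right), with genes grouped by role; a black dot marks an adjusted p under 0.05 and grey marks RSPO2, which was not tested in testosterone sheep. RSPO3 carries a dot in all 4 depots of control sheep, red in visceral and subcutaneous fat and blue in perirenal and epicardial fat.

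R-spondin 3 was the member with a call in every depot of control sheep. RSPO3 was at 141, 98.2, 81.0 and 135 CPM in visceral fat and at 218, 172, 77.0 and 160 CPM in subcutaneous fat of controls. In perirenal fat it was at 71.5, 15.3, 27.9 and 21.9 CPM, and in epicardial fat at 40.8, 16.3, 28.2 and 22.9 CPM. All control visceral and subcutaneous libraries lay above all control perirenal and epicardial libraries, the closest being 77.0 and 71.5 CPM. The log2 difference from the other depots was 1.18 (SE 0.23, edgeR adjusted p = 0.0108) in visceral and 1.76 (SE 0.23, adjusted p = 0.000194) in subcutaneous fat. It was -1.33 (SE 0.27, adjusted p = 0.00687) in perirenal and -1.62 (SE 0.27, adjusted p = 0.000764) in epicardial fat. The subcutaneous and epicardial calls held whichever sheep was left out. The visceral and perirenal calls were lost without sheep 201 (adjusted p = 0.102 and 0.0609) and without the animal as a block (adjusted p = 0.091 and 0.0627).

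In testosterone sheep visceral RSPO3 was again above perirenal and epicardial RSPO3, while subcutaneous RSPO3 varied between animals. Visceral levels were 106, 193, 62.4 and 81.7 CPM and subcutaneous levels 154, 218, 44.6 and 33.7 CPM. Perirenal levels were 22.3, 33.2, 6.43 and 34.7 CPM and epicardial levels 24.6, 20.1, 13.0 and 14.1 CPM. Here the subcutaneous value of sheep 255 fell inside the perirenal range. Visceral RSPO3 exceeded perirenal and epicardial RSPO3 in 8 of 8 sheep, subcutaneous exceeded epicardial in 8 of 8 and perirenal in 7 of 8. The test called subcutaneous fat higher (log2 1.44, SE 0.32, adjusted p = 0.0263) and epicardial fat lower (log2 -1.79, SE 0.38, adjusted p = 0.0141), while visceral fat at 1.63 had an adjusted p of 0.0587. The subcutaneous call was lost without the visceral library of sheep 255 and the subcutaneous one of sheep 48 (1.23, adjusted p = 0.123). The epicardial call was lost without the epicardial library of sheep 48 (-1.86, adjusted p = 0.0542). Both were lost without sheep 48, 185 or 233 (adjusted p up to 0.255 and 0.121) and without the animal as a block (adjusted p = 0.0782 and 0.0563).

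R-spondin 2 and the R-spondin receptor LGR4 stood higher in epicardial fat. RSPO2 was at 5.23, 3.30, 1.38 and 2.50 CPM in control epicardial libraries. In the other 12 control libraries it did not exceed 0.296 CPM, except for 1.91 CPM in visceral fat of sheep 98. The fitted log2 difference was 4.21 (SE 0.62). RSPO2 passed the filter on low counts through the epicardial libraries where it is high, so this difference is a description and no test. In testosterone epicardial fat RSPO2 was at 6.002, 0.402, 22.1 and 0.564 CPM, a wider spread than in controls.

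LGR4 was at 73.5, 55.1, 30.6 and 43.0 CPM in control epicardial fat and between 17.7 and 31.7 CPM in the other control depots. The epicardial values of 3 of 4 sheep lay above that range, and that of sheep 132 within it. The log2 difference was 1.10 (SE 0.19, adjusted p = 0.000492), and it passed whichever sheep was left out and, at 0.79 (adjusted p = 0.00461), without the epicardial library of sheep 98. In testosterone epicardial fat LGR4 was at 101, 40.8, 43.3 and 27.5 CPM, and its difference there of 0.77 (SE 0.25) had an adjusted p of 0.1. Epicardial LGR4 exceeded visceral LGR4 in 8 of 8 sheep, subcutaneous LGR4 in 7 and perirenal LGR4 in 6. The R-spondins RSPO1 and RSPO4 and the stem cell receptor LGR5 were at 0 or near it, with 79, 0 and 31 reads over all libraries.

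Among the receptors, FZD1 and FZD3 were low in subcutaneous fat of both groups of sheep. In control sheep FZD3 was at 2.64, 2.38, 1.58 and 2.53 CPM in subcutaneous fat. It was at 5.74, 4.52, 5.09 and 6.98 CPM in visceral, 6.35, 4.55, 6.68 and 6.83 in perirenal and 7.51, 8.79, 6.89 and 6.26 in epicardial fat. No subcutaneous value reached any value of another control depot. The log2 difference of subcutaneous fat was -1.47 (SE 0.25, edgeR adjusted p = 0.000555) in control and -1.41 (SE 0.31, adjusted p = 0.0263) in testosterone sheep. Subcutaneous FZD3 was below visceral, perirenal and epicardial FZD3 in 8 of 8 sheep each. Epicardial fat was higher by 0.80 (SE 0.21, adjusted p = 0.00758) in control sheep, a call lost without sheep 131 (adjusted p = 0.0806), and by 1.07 (SE 0.26, adjusted p = 0.0289) in testosterone sheep. The testosterone epicardial call was lost without the epicardial library of sheep 48 (0.86, adjusted p = 0.163), without sheep 48, 185 or 233 (adjusted p between 0.155 and 0.192) and without the block (adjusted p = 0.113). The testosterone subcutaneous call of FZD3 was lost without the visceral library of sheep 255 and the subcutaneous one of sheep 48 (-1.28, adjusted p = 0.0614), without sheep 48, 185 or 233 (adjusted p between 0.0975 and 0.21) and without the block (adjusted p = 0.096).

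FZD1 was at 8.39, 11.1, 9.90 and 5.43 CPM in control subcutaneous fat. Visceral fat of the same animals held 40.2, 31.9, 14.7 and 19.9 CPM, perirenal fat 20.4, 36.1, 17.4 and 14.7 CPM and epicardial fat 14.7, 15.0, 13.3 and 13.4 CPM. All 4 subcutaneous values were thus below the 12 others. The log2 difference was -1.21 (SE 0.22, edgeR adjusted p = 0.00107) and held whichever sheep was left out. In testosterone sheep subcutaneous FZD1 was at 9.44, 4.42, 14.5 and 4.16 CPM, and the difference was -1.49 (SE 0.36, adjusted p = 0.0419), lost without any 1 of the 4 testosterone sheep (adjusted p between 0.0553 and 0.243) and without the block (adjusted p = 0.13). Visceral and perirenal FZD1 exceeded subcutaneous FZD1 in 8 of 8 sheep, and epicardial FZD1 did in 7. Visceral fat of controls was called higher by 0.90 (SE 0.19, adjusted p = 0.0105). That call was lost without sheep 98, 131 or 201 (adjusted p between 0.0541 and 0.0948) and without the block (adjusted p = 0.056).

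Mesothelial genes move with the subcutaneous depot in the same way. Of 7 mesothelial genes (MSLN, UPK3B, WT1, KRT19, KRT8, KRT18 and CALB2), 6 had counts, and their sum was 1.09 to 3.83 CPM in control and 1.04 to 8.09 CPM in testosterone subcutaneous libraries, against 48.2 to 227 CPM in the other depots. MSLN and UPK3B were at 0 in the testosterone subcutaneous libraries and KRT18 in the control ones. CALB2 was at 0 in all depots, and MSLN also in control perirenal and testosterone epicardial fat. Their part in the lower FZD1 and FZD3 of subcutaneous fat was not tested. Nor was it for SFRP1, whose subcutaneous difference passed in testosterone sheep but not in controls (log2 -1.51, edgeR adjusted p = 0.0527).

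FZD4, a receptor of Wnt and of the vascular ligand norrin, was at 592, 575, 603 and 581 CPM in control epicardial fat and at 600.4 to 1188 CPM in the other control depots, with an overlap at its upper end. Its log2 difference was -0.48 (SE 0.13, adjusted p = 0.0115), and the call was lost without sheep 131 (adjusted p = 0.0555) and without the epicardial library of sheep 98 (-0.38, adjusted p = 0.0676). The other 8 tested receptors were FZD5, FZD6, FZD7, FZD8, LRP5, LRP6, ROR1 and ROR2, and none passed the joint test in either group. ROR2, a receptor for WNT5A, came nearest in controls, at 2.40, 1.59, 1.35 and 0.724 CPM in subcutaneous and 5.60, 3.07, 4.44 and 3.74 CPM in visceral fat (adjusted p = 0.0583 over the 4 depots). The co-receptor LRP6 lay between 218 and 374 CPM in every control library (adjusted p = 0.251).

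**Figure D2:**
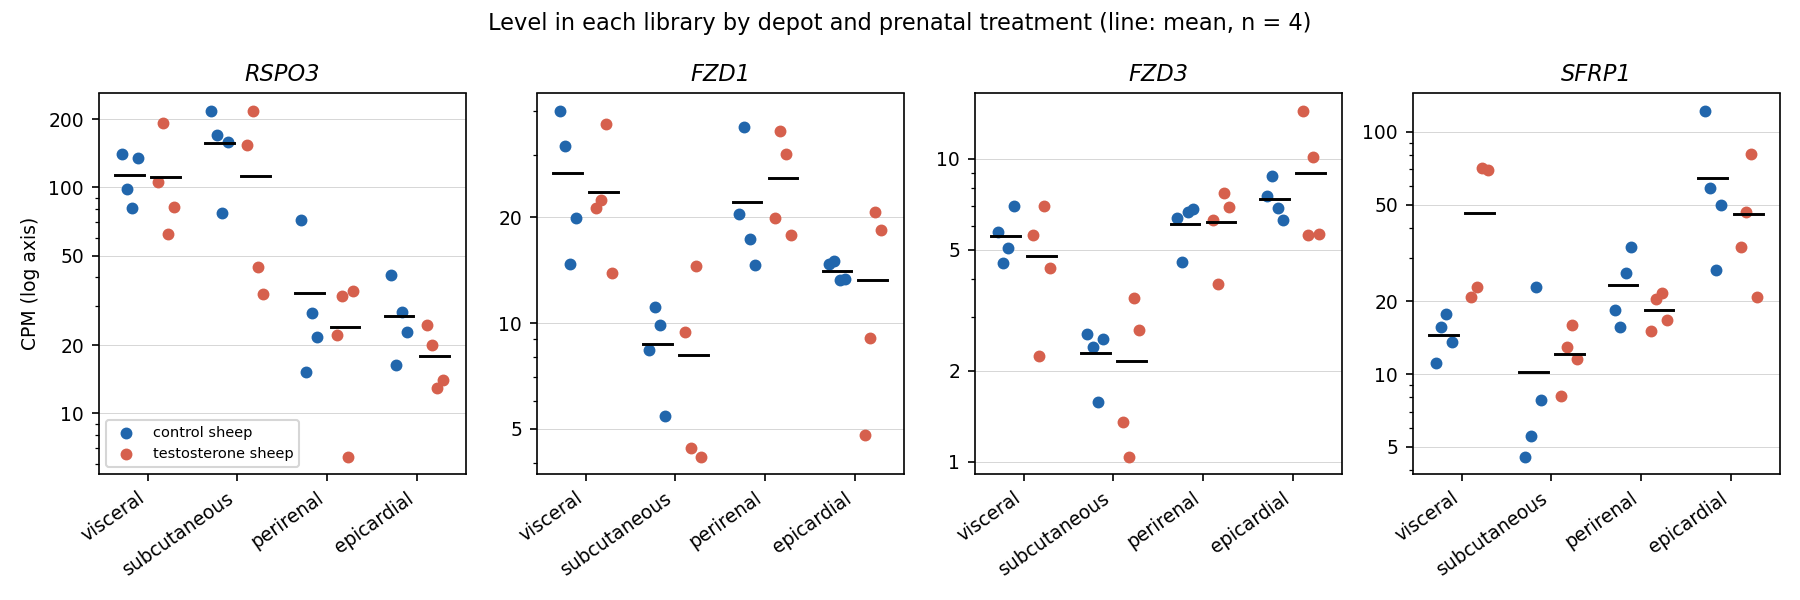
CPM on a log axis of RSPO3, FZD1, FZD3 and SFRP1, the members that passed the test among depots in both groups, by depot, with 1 point per library, control sheep in blue, testosterone sheep in red and a black line at the mean of 4. Subcutaneous FZD3 lies at 1.58 to 2.64 CPM in controls, under every control value of the other depots, and control RSPO3 lies at 77.0 CPM or more in visceral and subcutaneous fat and at 71.5 CPM or less in perirenal and epicardial fat.

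Of the ligands, WNT11, which signals mainly without β-catenin, was highest in subcutaneous and lowest in perirenal fat of controls. It was at 2.88, 3.97, 3.83 and 2.71 CPM in subcutaneous fat and at 0.296, 0.455, 0.504 and 0.803 CPM in perirenal fat. Visceral libraries held 0.968 to 2.09 CPM and epicardial libraries 0.980 to 1.38 CPM. The lowest subcutaneous value thus lay above all others, and the highest perirenal value below all others. The fitted log2 difference was 1.74 (SE 0.30) in subcutaneous and -1.85 (SE 0.38) in perirenal fat. WNT11 passed the filter on low counts through the subcutaneous libraries where it is high, so these differences are a description and no test. In testosterone sheep WNT11 was at 2.70, 1.82, 1.06 and 1.63 CPM in subcutaneous and 0, 0.322, 1.82 and 1.36 CPM in perirenal fat. The groups of depots overlapped there, and the joint test gave an adjusted p of 0.747.

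WNT5A, the main ligand of signalling without β-catenin, was at 6.95, 15.9, 21.2 and 10.1 CPM in control subcutaneous fat and at 11.4 to 28.9 CPM in the other control depots. The ranges overlapped between animals, but within the fit that compares depots of the same sheep the difference was -0.70 (SE 0.19, adjusted p = 0.0123). It was lost without the animal as a block (-0.66, adjusted p = 0.127). WNT2B was at 4.90, 6.78, 6.72 and 4.59 CPM in control epicardial fat and at 1.80 to 6.43 CPM elsewhere. Its difference of 0.87 (SE 0.30, adjusted p = 0.0366) was lost without sheep 98, 131 or 132 (adjusted p up to 0.210) and with DESeq2 (adjusted p = 0.054). Leaving out the epicardial library of sheep 98 (0.90, adjusted p = 0.071) or its perirenal library (0.87, adjusted p = 0.0505) also ended the call. The joint test of WNT2B did not pass (adjusted p = 0.0793). Neither WNT6 nor WNT9A passed in any depot comparison.

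WNT10B, the ligand known for restraining fat cell formation, had too few reads for the comparison of depots. Its level was 2.32, 1.45, 1.17 and 1.19 CPM in control visceral, 1.03, 1.82, 0.504 and 1.81 CPM in perirenal and 0.980, 0.916, 1.03 and 0.835 CPM in epicardial fat. In control subcutaneous fat WNT10B was detected in sheep 98 alone, at 0.240 CPM. The testosterone sheep had 0, 0, 0 and 0.362 CPM in subcutaneous fat, so 6 of 8 subcutaneous libraries held no read. In these, 3 counts would correspond to 0.454 to 4.04 CPM, so the difference is near the limit of depth. WNT16 reached 3.71 CPM in visceral fat of control sheep 131 and 7.06 CPM in that of testosterone sheep 185, and was at no more than 1.41 CPM in the other libraries.

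Among the secreted inhibitors, SFRP1 stood higher in epicardial fat. Its control epicardial levels were 122, 58.4, 26.9 and 50.1 CPM. It was at 11.1, 15.6, 17.6 and 13.6 CPM in visceral, 4.55, 5.56, 22.9 and 7.78 in subcutaneous and 18.3, 15.6, 26.1 and 33.3 in perirenal fat. The epicardial value of sheep 132 lay within the perirenal range, and the other 3 lay above every value of the other depots. The log2 difference was 2.13 (SE 0.41, edgeR adjusted p = 0.00336), and it passed whichever sheep was left out. Without the epicardial library of sheep 98 it was 1.51 (adjusted p = 0.00882). In testosterone sheep SFRP1 was at 33.6, 46.6, 81.4 and 20.9 CPM in epicardial and 8.09, 13.0, 15.9 and 11.6 CPM in subcutaneous fat. There the subcutaneous difference passed (-1.44, SE 0.33, adjusted p = 0.0295), a call lost without sheep 48, 185 or 233 (adjusted p between 0.105 and 0.192) and without the block (adjusted p = 0.0807). The epicardial difference of 1.01 (SE 0.28, adjusted p = 0.0519) did not pass. It passed without the epicardial library of sheep 255 (1.34, adjusted p = 0.00503), without the visceral library of sheep 255 and the subcutaneous one of sheep 48 (1.12, adjusted p = 0.00584), with DESeq2 (adjusted p = 0.0189), with RLE size factors (adjusted p = 0.0479) and with no filter on low counts (adjusted p = 0.0333). Without the epicardial library of sheep 48 it did not (0.93, adjusted p = 0.179). Epicardial SFRP1 exceeded that of subcutaneous and perirenal fat in 8 of 8 sheep and that of visceral fat in 7.

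DKK3, a relative of the Dickkopf proteins, was called higher in epicardial fat, with a wide spread. It was at 1008, 127, 14.1 and 42.8 CPM in controls and at 143, 28.1, 116 and 18.4 CPM in testosterone sheep, against 3.64 to 46.8 CPM in the other depots of both groups. Sheep 98 stood far above all others. The epicardial difference was 2.96 (SE 0.87, edgeR adjusted p = 0.0318) in control and 2.06 (SE 0.42, adjusted p = 0.0126) in testosterone sheep. The control call was lost without sheep 98 (1.31, adjusted p = 0.175), 131 (3.13, adjusted p = 0.149) or 201 (3.54, adjusted p = 0.0674), and the testosterone call without sheep 48 (1.63, adjusted p = 0.122) or 233 (1.59, adjusted p = 0.219). The control call was also lost without the epicardial library of sheep 98 (1.31, adjusted p = 0.111) or its perirenal library (2.51, adjusted p = 0.0585). The testosterone call was lost without the epicardial library of sheep 48 (1.61, adjusted p = 0.0991). In testosterone sheep DKK3 was also lower in subcutaneous fat (-2.10, SE 0.51, adjusted p = 0.045). This was lost without sheep 48, 185 or 233 (adjusted p between 0.101 and 0.234) and without the block (adjusted p = 0.0527). It was lost too without the visceral library of sheep 255 and the subcutaneous one of sheep 48 (adjusted p = 0.133). The same held without the epicardial library of sheep 48 (adjusted p = 0.0501) and with no filter on low counts (adjusted p = 0.1).

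Heart muscle genes moved with DKK3 across the epicardial libraries. Of 10 heart muscle genes, 8 were in the count table, and TNNT2, MYL7 and NPPA were at 0 in every depot but epicardial fat. The sum of the 8 in epicardial fat was 12080, 3082, 5.68 and 324 CPM in controls and 20040, 227, 2300 and 5.45 CPM in testosterone sheep, against at most 32.0 CPM in the other depots. The libraries of sheep 132 and 255, with the lowest sums, also had the lowest epicardial DKK3, at 14.1 and 18.4 CPM, which is inside the range of the other depots. The library of sheep 255 is the one with HOXC6 at 94.6 CPM, so its low values cannot be told apart from those of another depot. LGR4 and SFRP1 were lowest in the same libraries, at 30.6 and 27.5 CPM for LGR4 and 26.9 and 20.9 CPM for SFRP1. FRZB, a Frizzled-related protein of cartilage and heart, was at 46.1, 14.1, 2.41 and 7.10 CPM in control and 29.4, 3.01, 38.5 and 9.03 CPM in testosterone epicardial fat, and did not pass (adjusted p of the joint test 0.102 and 0.0998). The part of heart muscle in these values was not tested. The adipocyte sum was lowest in the epicardial libraries of sheep 98 and 48, at 7042 and 8354 CPM.

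**Figure D3:**
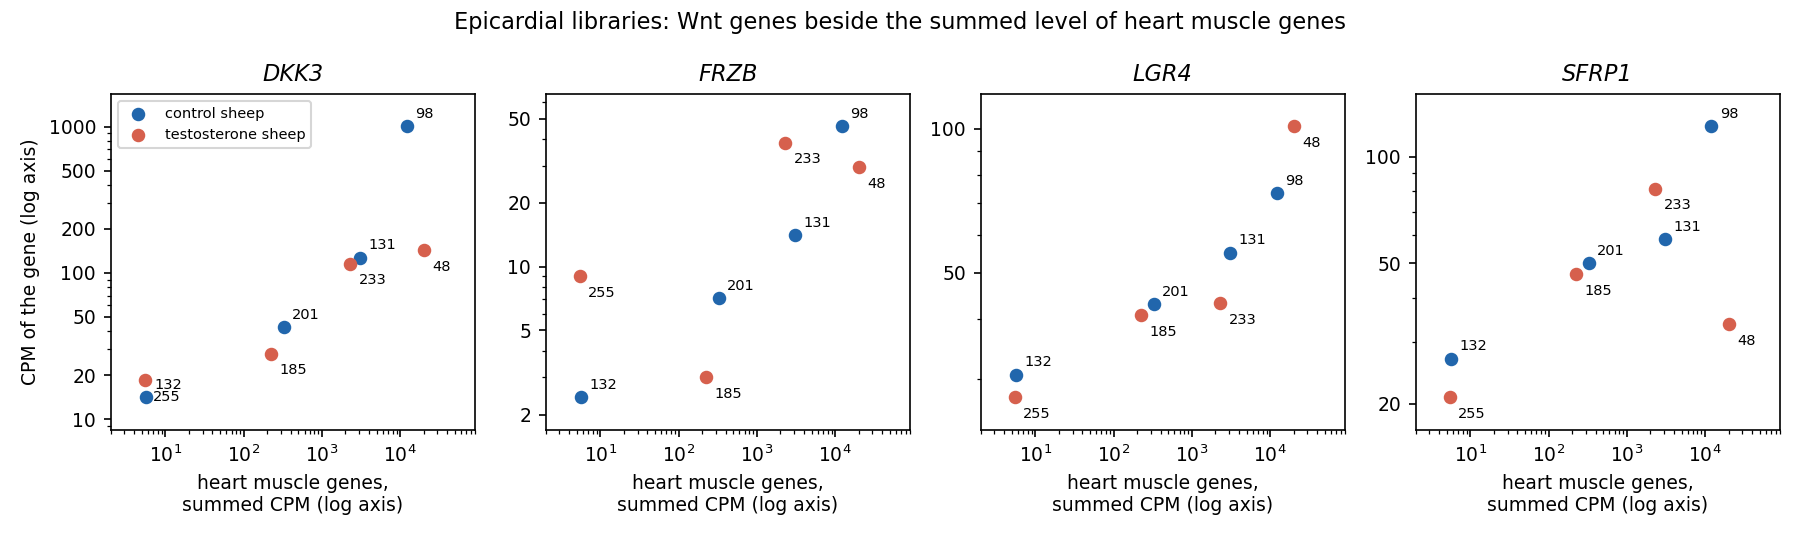
Level of DKK3, FRZB, LGR4 and SFRP1 in the 8 epicardial libraries (CPM, log axis) against the summed CPM of heart muscle genes (log axis), with control sheep in blue, testosterone sheep in red and each point labelled with its animal. DKK3 runs from 14.1 CPM at a sum of 5.68 CPM in sheep 132 to 1008 CPM at a sum of 12080 CPM in sheep 98, while SFRP1 of sheep 48 lies at 33.6 CPM at a sum of 20040 CPM.

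SFRP4 was the inhibitor raised in subcutaneous fat. It was at 6.71, 6.88, 54.2 and 21.4 CPM there in controls and at 0.689 to 6.23 CPM in the other depots. All 4 subcutaneous values lay above the other 12. The difference was 2.59 (SE 0.60, edgeR adjusted p = 0.0107) and was lost without sheep 201 (adjusted p = 0.0786). In testosterone sheep SFRP4 was at 1.35, 9.87, 10.7 and 39.1 CPM in subcutaneous fat, and the difference of 2.27 (SE 0.61) had an adjusted p of 0.0663. Subcutaneous SFRP4 exceeded visceral SFRP4 in 8 of 8 sheep, epicardial SFRP4 in 7 and perirenal SFRP4 in 6.

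DKK2 and SFRP5 were each low in 1 depot. DKK2 was at 0.410, 1.13, 1.96 and 0.511 CPM in control visceral fat and at 2.12 to 7.51 CPM in the other control depots, apart from 31.5 CPM in subcutaneous fat of sheep 132. No visceral value overlapped the rest. Its difference was -2.66 (SE 0.58, adjusted p = 0.0174). The call was lost without sheep 98, 131 or 201 (adjusted p between 0.0607 and 0.11) and without the block (adjusted p = 0.0565). Visceral DKK2 was below subcutaneous and epicardial DKK2 in 8 of 8 sheep and below perirenal DKK2 in 7. SFRP5 was at 66.5, 74.2, 23.7 and 27.3 CPM in control perirenal fat against 56.5 to 159 CPM elsewhere. Its difference of -1.23 (SE 0.31, adjusted p = 0.0214) was lost without sheep 131, 132 or 201 (adjusted p between 0.0579 and 0.0903) and with no filter on low counts (adjusted p = 0.0645). In testosterone sheep SFRP5 spread from 0.435 to 239 CPM, and its joint test gave an adjusted p of 0.950.

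SFRP2, the remaining SFRP, had no read in 4 of 4 control subcutaneous libraries. Control perirenal libraries held 1.18, 5.92, 1.26 and 0.602 CPM, with 39 of the 60 reads from sheep 131. Visceral fat lay at 0.391 to 0.807 CPM, at least 3.32-fold higher than subcutaneous fat when 3 counts over the 4 subcutaneous libraries are taken as the floor. SFRP2 was left out of the depot tests by the filter on low counts. DKK1 and WIF1 had 34 and 29 reads over all libraries.

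Among the intracellular and nuclear members, NKD2, an inhibitor that binds Dishevelled, was lowest in visceral and highest in epicardial fat. It was at 10.2, 15.3, 11.7 and 10.6 CPM in control visceral and 47.7, 26.4, 27.2 and 33.0 CPM in epicardial fat. Subcutaneous fat, at 9.23 to 30.98 CPM, overlapped both, and perirenal fat, at 16.1 to 28.7 CPM, lay above the visceral values and overlapped the epicardial ones. The visceral difference was -0.99 (SE 0.21, edgeR adjusted p = 0.0128), lost without sheep 98 or 201 (adjusted p = 0.075 and 0.0957). The epicardial difference was 0.97 (SE 0.19, adjusted p = 0.0013), and it passed whichever sheep was left out (adjusted p up to 0.0174). Epicardial NKD2 exceeded visceral NKD2 in 8 of 8 sheep, and subcutaneous and perirenal NKD2 in 7 each.

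TCF7, a β-catenin partner that is also abundant in T cells, was at 18.0, 21.2, 26.8 and 20.8 CPM in control subcutaneous fat. It was at 8.23 to 17.1 CPM in visceral, 9.24 to 14.5 in perirenal and 11.4 to 19.9 in epicardial fat, so only the epicardial value of sheep 98 reached the subcutaneous range. The difference was 0.73 (SE 0.18, adjusted p = 0.00914) and was lost without sheep 132 or 201 (adjusted p = 0.0505 and 0.0506). The 6 T and NK cell genes checked had sums of 9.59 to 23.0 CPM in control subcutaneous fat and 36.6 to 98.5 CPM in the other control depots. The part of these cells in the TCF7 values was not tested. LEF1 was higher in epicardial fat of controls by 0.68 (SE 0.21, adjusted p = 0.0231), at 5.86 to 10.5 CPM against 4.10 to 7.68 CPM elsewhere. That call was lost without sheep 98 or 132 (adjusted p = 0.154 and 0.142) and without the epicardial library of sheep 98 (adjusted p = 0.129). TCF7L2 lay between 219 and 425 CPM in every control library (adjusted p = 0.409), and AXIN2, a common readout of β-catenin signalling, at 1.27 to 7.51 CPM (adjusted p = 0.244).

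The testosterone sheep are other animals, and the same tests called fewer Wnt genes in them. The joint test called 5 of 32 members (15.6%), FZD1, FZD3, RSPO3, SFRP1 and DKK3, and 4.82% of all genes. Of these, 4 were also called in control sheep, 28.6% of the control calls and 80% of the testosterone calls. The overlap was not counted over all genes, so it is not read as a result about Wnt genes. Subcutaneous fat had 1 member higher and 4 lower, where 1.25% of all genes were higher and 1.3% lower, and epicardial fat had 2 higher and 1 lower, where 2.97% and 1.49% were. The 6 calls shared with controls in these depots had the same sign, which was likewise not counted over all genes. Each of the 8 calls was lost without at least 2 of the sheep 48, 185 and 233, and subcutaneous fat kept 0 calls without sheep 48, 185 or 233. Without the epicardial library of sheep 48 epicardial fat kept 0 calls, and without the visceral library of sheep 255 and the subcutaneous one of sheep 48 subcutaneous fat had 2. Without the epicardial library of sheep 255 epicardial fat had 6. The joint test called 1 member without sheep 48, 0 without sheep 185 and 1 without sheep 233. The share of all genes called with sheep or libraries left out is not given here.

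In visceral and perirenal fat of testosterone sheep edgeR called 0 members. The background was also low, 0.0671% of all genes higher and 0.0224% lower in visceral fat, and 0.455% and 0.104% in perirenal fat. At an unadjusted p under 0.05, 8 members passed in visceral and 7 in perirenal fat, and DESeq2 called 1 and 3. The background above is that of edgeR's adjusted p, and the share of all genes for these other counts is not given here. They are therefore not read as a result about Wnt genes. The median SE of the 32 members was 0.30 in both depots, against 0.24 and 0.26 for the 33 members in control sheep. A call in 1 group and none in the other does not show that the groups differ, which the interaction below tests.

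A list of 59 further pathway genes was read beside the members, of which 56 were in the table and 45 had enough reads for the depot tests. In control sheep 21 of 45 (46.7%) differed among depots, against 39.9% of all genes. They were 5 of 13 cytoplasmic genes, 7 of 11 nuclear cofactors, 3 of 9 other Wnt receptors and planar polarity genes, 3 of 5 regulators at the cell surface, 2 of 5 target genes and 1 of 2 genes of Wnt secretion. Against the other depots 12 were higher and 4 lower in subcutaneous fat (11.4% and 11.6% of all genes) and 8 and 11 in epicardial fat (15.3% and 12.4%). Perirenal fat had 1 higher and 2 lower (7.73% and 6.04%) and visceral fat 0 and 3 (3.49% and 2.24%). Each of the 6 calls of cytoplasmic genes in epicardial fat was lower, among them β-catenin itself, CTNNB1, at 313 ± 26.9 CPM (SD, n = 4) against 372 to 426 CPM on average elsewhere.

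The joint test called 6 of these genes in both groups of sheep, of which 5 are described. APCDD1, a surface inhibitor of Wnt signalling, was at 409 ± 91.4 CPM (SD, n = 4) in control subcutaneous and 50.9 ± 18.4 CPM in epicardial fat. Its log2 difference was 1.87 (SE 0.20, edgeR adjusted p = 4.03e-05) in subcutaneous and -2.13 (SE 0.26) in epicardial fat of controls, and 1.70 and -1.61 in testosterone sheep. The testosterone calls of APCDD1 were lost without sheep 48, 185 or 233 (adjusted p up to 0.116 and 0.24), and the epicardial one without the epicardial library of sheep 48 (-1.42, adjusted p = 0.134). TNFRSF19, a receptor induced by Wnt signalling, ran opposite, at 4.96 ± 2.25 CPM in control subcutaneous and 33.2 ± 6.23 CPM in epicardial fat, with differences of -1.78 (SE 0.28) and 1.94 (SE 0.22). The kinase TNIK, which acts on TCF factors, was at 35.4 ± 8.66 CPM in control subcutaneous and 86.3 ± 8.27 CPM in epicardial fat. TWIST1 was higher in control subcutaneous fat by 1.07 (SE 0.14), and the co-repressor TLE4 differed by -0.71 (SE 0.17) in control epicardial fat. In testosterone sheep TWIST1 was higher in subcutaneous fat (0.95, edgeR adjusted p = 0.0143) and TNIK in epicardial fat (1.02, adjusted p = 0.017). TLE4 was called in their subcutaneous fat (0.90, adjusted p = 0.0194), not in epicardial fat. Each of these calls was lost without sheep 48, 185 or 233. That of TNIK was also lost without the epicardial library of sheep 48 (1.07, adjusted p = 0.0533). The testosterone calls of TNFRSF19 held whichever sheep was left out. These 6 were also the only pathway genes called among depots in testosterone sheep (13.3% of 45, against 4.82% of all genes).

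The second question was whether testosterone before birth changed Wnt genes in adult fat. By edgeR's quasi-likelihood test 0 of 30 members passed in visceral fat, 0 of 28 in subcutaneous fat, 0 of 33 in perirenal fat and 0 of 28 in epicardial fat, where 0% of all genes passed in each depot. Over the counts summed per sheep 0 of 38 members passed, against 0.00654% of all genes. At an unadjusted p under 0.05, 3, 2, 2 and 1 members passed in these depots and 3 over the sums. DESeq2 called 1 member in visceral fat, FZD8, and 0 in the other depots and over the sums. The share of all genes at the unadjusted threshold or with DESeq2 is not given here. These counts are therefore not read as a result about Wnt genes. The SE of the members had a median of 0.36 in visceral fat, 0.42 in subcutaneous fat, 0.32 in perirenal fat and 0.34 in epicardial fat on the log2 scale. With 4 sheep a group, differences of that size and well above it could go uncalled. In visceral fat FZD8 at -1.03 and SFRP1 at 1.66 both had an edgeR adjusted p of 0.521.

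FZD8, a Frizzled receptor, had the smallest p of the members. It was at 82.7, 128, 97.6 and 92.4 CPM in control and 48.1, 57.8, 49.6 and 42.2 CPM in testosterone visceral fat. The groups did not overlap, and the log2 difference was -1.03 (SE 0.20, unadjusted p = 0.000371). Adjusted over all genes the p was 0.521 with edgeR's quasi-likelihood test and 0.0102 with DESeq2. In the other depots the differences of FZD8 were -0.54 (SE 0.28), -0.37 (SE 0.29) and -0.38 (SE 0.27), and the groups overlapped. Without the visceral library of sheep 255 the visceral difference was -0.97 (adjusted p = 0.366).

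SFRP1 ran the other way in visceral fat. It was at 11.1, 15.6, 17.6 and 13.6 CPM in control and 20.8, 22.9, 71.1 and 69.5 CPM in testosterone visceral fat. No testosterone value overlapped the controls, and sheep 233 and 255 stood above the other 2. The visceral library of sheep 255 is the one with ARGLU1 at 19700 CPM, and SFRP1 did not pass without it either. With all libraries the difference was 1.66 (SE 0.43, unadjusted p = 0.00265, edgeR adjusted p = 0.521). Subcutaneous, perirenal and epicardial SFRP1 differed by 0.31 (SE 0.47), -0.33 (SE 0.25) and -0.49 (SE 0.54). The sum of 7 adipocyte genes, none of them at 0, also separated the visceral groups, at 31660 to 52550 CPM in control and 8768 to 30390 CPM in testosterone sheep. Its part in the values of FZD8 and SFRP1 was not tested.

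The other 4 members with the smallest p in a testosterone test did not pass either. TCF7L1 was at 100.2, 74.5, 68.0 and 65.5 CPM in control and 53.7, 53.9, 55.8 and 51.8 CPM in testosterone perirenal fat (log2 -0.52, SE 0.16, edgeR adjusted p = 0.879). The groups of TCF7L1 did not overlap there. WNT11 was at 2.88, 3.97, 3.83 and 2.71 CPM in control and 2.70, 1.82, 1.06 and 1.63 CPM in testosterone subcutaneous fat (-1.06, SE 0.41, adjusted p = 0.927), where the groups came close but did not overlap and the value of sheep 48 is 2 reads. In this fit WNT11 passed the filter on low counts through the control libraries, where it is high. Its difference and the lack of overlap are therefore a description and no support. In epicardial fat SFRP5 was at 104, 109, 87.0 and 117 CPM in control and 59.4, 87.2, 72.2 and 29.3 CPM in testosterone sheep. The difference was -0.75 (SE 0.28, adjusted p = 0.821), with 1 testosterone value inside the control range. The lowest value is from the library of sheep 255, the one with HOXC6 at 94.6 CPM. Without that library the SFRP5 difference was -0.50 (adjusted p = 0.513). The value of 59.4 CPM is from the library of sheep 48, with heart muscle genes at 20040 CPM. Without it and the control library with these genes at 12080 CPM, the SFRP5 difference was -0.72 (adjusted p = 0.787). TCF7 was higher by 0.36 (SE 0.14, adjusted p = 0.71) over the counts summed per sheep, with differences of 0.86, 0.27, 0.25 and 0.27 in visceral, subcutaneous, perirenal and epicardial fat.

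**Figure D4:**
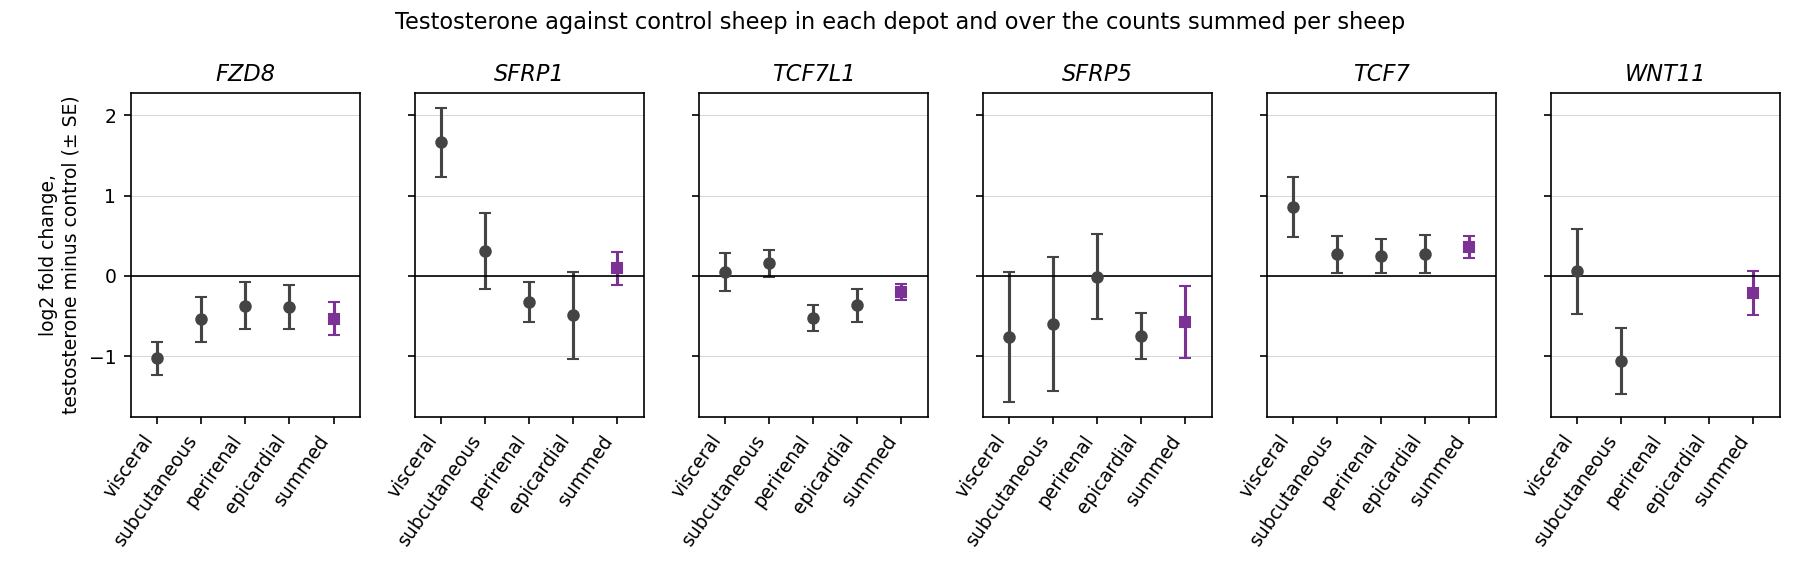
Log2 difference between testosterone and control sheep with its SE for FZD8, SFRP1, TCF7L1, SFRP5, TCF7 and WNT11 in each depot (circles) and over the counts summed per sheep (squares); WNT11 was not tested in perirenal and epicardial fat. FZD8 lies below 0 throughout, from -1.03 to -0.37, and SFRP1 is at 1.66 in visceral fat and between -0.49 and 0.31 in the other depots.

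The interaction asks whether depots differ in another way in testosterone than in control sheep. By edgeR's joint test over the 32 libraries with the animal as a block, 0 of 35 members passed, against 0.00703% of all genes, and DESeq2 called 0. At an unadjusted p under 0.05 there were 2, SFRP1 and SFRP2, each with an edgeR adjusted p of 0.994. SFRP2 was at 0, 0, 0.517 and 0.209 CPM in control and 0.6002, 0.803, 2.41 and 4.14 CPM in testosterone epicardial fat. The groups did not overlap there, but the values are near the limit of depth. Control epicardial fat held 4 reads in all, and in the library of testosterone sheep 48 a count of 3 would be 1.8 CPM. In perirenal fat its control values of 1.18, 5.92, 1.26 and 0.602 CPM overlapped the testosterone values of 0, 1.61, 3.78 and 0.408 CPM. Of the 45 pathway genes tested, 0 passed the interaction by edgeR, with 2 at an unadjusted p under 0.05. The share of all genes at this unadjusted threshold is not given here.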

How the data were processed

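The deposited table holds raw counts per gene of 32 libraries made with a 3′ end kit, per the labels' protocols from RNA with an integrity of at least 7. The tools named, without their roles, are STAR, featureCounts 1.6.1, Trimmomatic 0.36, DESeq2 1.24.0, R 3.6.3, MultiQC 0.9 and FastQC 0.11.5, per the submitters' processing notes. For genome build, annotation and strand setting the answer is: not given in the sources used here. Reads of overlapping genes may therefore be misassigned. All 57 symbols matched a RefSeq gene table (ARS-UI_Ramb_v3.0), used for names alone.

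CPM and tests came from edgeR 4.0.16 in R 4.3.3 (TMM factors 0.882 to 1.11, filterByExpr at its minimum count of 10, robust quasi-likelihood fit, Benjamini-Hochberg adjustment over all genes tested, FDR under 0.05). SEs were obtained from each log2 fold change and its F statistic (absolute change over root F). Testosterone was tested within the 8 libraries of a depot and over counts summed per sheep, depots within the 16 libraries of each group with the sheep as a block, and the interaction over all libraries. The block rests on the animal numbers in the labels, which recur in every depot: 41 of 48 same-sheep correlations of deviations were over 0.1 (mean 0.246). The 48 replicate pairs differed beyond sampling noise (chi-square per degree of freedom at least 10.7). The fits were tested on simulated data.

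Members and gene lists were chosen with earlier results of these data known. Genes named by rule are members that passed among depots in both groups, the 6 with the smallest testosterone p, 6 pathway genes that passed in both groups, and members in no test; 1 of the pathway genes is not reported here. Other genes were named after their values were seen. Alternatives were RLE size factors, DESeq2 1.42.0, no filter, no block, and leaving out each sheep or the libraries that stood apart.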

Additional observations from a re-analysis of the deposited data

Results flagged for a closer look

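Among 160 groups of 4 libraries (20 members in 8 groups each), 10 had 1 library far from the other 3 by Dixon's test at the 95% level, where chance gives about 1 in 20. DKK3 in epicardial fat of control sheep 98 reached 1008 CPM, the other controls 14.1 to 127 CPM. DKK2 in subcutaneous fat of control sheep 132 was at 31.5 CPM, against 2.12 to 4.32 CPM. SFRP5 in subcutaneous fat of testosterone sheep 185 was at 239.5 CPM, against 6.70 to 45.1 CPM, and SFRP4 in perirenal fat of the same animal at 12.24 CPM, against 1.94 to 2.86 CPM. TCF7L1 in subcutaneous fat of control sheep 98 was the low one, at 65.2 CPM against 78.1 to 79.4 CPM.

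RSPO2 accounts for the other 5, all outside epicardial fat. It was at 1.913 CPM in visceral fat of control sheep 98 (0 to 0.161 CPM in the others) and at 1.609 CPM in that of testosterone sheep 185 (0 to 0.2004 CPM). It was detected in 1 library of 4 in subcutaneous fat of controls (sheep 131, 0.2648 CPM) and of testosterone sheep (sheep 255, 0.181 CPM), and in perirenal fat of testosterone sheep (sheep 255, 0.136 CPM). Each of these 3 is 1 read beside 3 libraries at 0, which Dixon's test always marks, so they carry no information.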

How the results depend on the processing

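Of 823 values of single genes under an alternative (78 gene results), 687 kept their direction and their side of the threshold, 118 fell short of it, 18 newly passed it and 0 reversed. The counts of members called in this section stand without the share of all genes called in the same setting. They are therefore not read as results about Wnt genes. With DESeq2 members called became 1 for testosterone in visceral fat, 11 for subcutaneous fat of controls and, in testosterone sheep, 11 among depots, 1 for visceral fat, 8 for subcutaneous fat, 3 for perirenal fat and 6 for epicardial fat. With no filter on low counts, testosterone sheep had 2 in perirenal and 7 in epicardial fat. Without the replicate block, controls had 1 in visceral fat and testosterone sheep 3 among depots, 0 in subcutaneous and 1 in epicardial fat. It moved no other count by over 1.5 times.

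Leaving out the visceral library of sheep 255 and the subcutaneous one of sheep 48 gave testosterone sheep 2 calls for subcutaneous fat, 1 for perirenal fat and 7 for epicardial fat. Leaving out the epicardial library of sheep 98 gave controls 6 in epicardial fat. Leaving out that of sheep 48 gave testosterone sheep 1 in perirenal and 0 in epicardial fat. Leaving out the epicardial library of sheep 255 gave testosterone sheep 8 among depots, 2 in perirenal and 6 in epicardial fat.

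With each sheep left out in turn, controls had 8 to 14 calls among depots, 0 to 4 in visceral, 1 to 3 in perirenal and 6 to 10 in epicardial fat. Testosterone sheep had 0 to 7 among depots, 0 to 1 for visceral fat, 0 to 5 for subcutaneous fat, 0 to 1 for perirenal fat and 0 to 8 for epicardial fat. Apart from fewer samples and, with no filter, more genes tested, the cause was not tested. Depth limits ligands most, and in the shallowest library 3 counts are 4.04 CPM.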
